A study of Homo sapiens with 4 samples.

Results

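The 8 genes described here encode the core proteins of small nucleolar ribonucleoproteins (snoRNPs), and they were chosen by name among the 62700 genes of a count table. DKC1, GAR1, NHP2 and NOP10 form the protein core of H/ACA particles, and FBL, NOP56, NOP58 and SNU13 that of C/D particles. They were listed with the difference between labelled and unlabelled libraries already known, so that difference is given as a description and supports nothing about the list as a whole. The cells were HEK293T, a human embryonic kidney line, and the labels call them a clone derived from HEK 293 cells. All cells carried a V5-tagged PRADA construct with a CMV promoter that was directed to the mitochondrial matrix, where it labels molecules around it. All cells received 100 µM of the uridine analogue s4U for 5 h, then 0.5 mM alkyne phenol with s4U for 30 min. The 2 labelled libraries came from cells given 10 mM D-amino acid for a further 30 min to start the reaction, and the 2 unlabelled libraries from cells that did not receive it. RNA was depleted of ribosomal RNA, and the series describes its material as labelled and enriched, without saying whether the unlabelled libraries were enriched too. The titles name biological replicates and do not say whether these were separate cultures. The p-values thus cover the spread among 4 libraries, which may be technical.

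In C/D particles, a guide RNA leads the methyltransferase fibrillarin (FBL) to the ribose that it methylates, and in H/ACA particles it leads the pseudouridine synthase dyskerin (DKC1) to the uridine that it isomerises. Both kinds act on ribosomal RNA in the nucleolus, and related particles act on spliceosomal RNA in Cajal bodies. The H/ACA core also binds telomerase RNA. In vertebrates most of the guide RNAs are cut out of introns of other genes, and some of those host genes encode snoRNP proteins themselves. All 8 mRNAs are made in the nucleus from nuclear genes and translated outside the mitochondria.

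Of the 8 genes, 3 held guide RNAs inside their introns, namely DKC1, NOP56 and NOP58, with 11 snoRNA genes between them in at least 1 GENCODE 29 transcript. DKC1 held only H/ACA RNAs, SNORA36A and SNORA56. The C/D protein gene NOP56 held 4 C/D RNAs and the H/ACA RNA SNORA51, and NOP58 held 4 C/D RNAs. The DNA-sense sequences of 9 of the 11 are shown because their boxes define the particle that each RNA joins and because counted and uncounted RNAs are compared further on. Capitals mark, in C/D RNAs, box C (ATGATGA or GTGATGA in the first 50% of the RNA) and box D (CTGA in the last 20 bases). In H/ACA RNAs they mark box H (ANANNA, where it occurred once between 40% and 60% of the length) and the ACA box in the last 6 bases. Sequences are those of GENCODE 29 on GRCh38, whose coordinates for these genes equal those of the count table, and all lie on the plus strand.
SNORA36A: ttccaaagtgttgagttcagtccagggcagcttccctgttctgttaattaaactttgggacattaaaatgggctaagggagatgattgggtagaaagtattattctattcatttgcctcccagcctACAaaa
SNORA56: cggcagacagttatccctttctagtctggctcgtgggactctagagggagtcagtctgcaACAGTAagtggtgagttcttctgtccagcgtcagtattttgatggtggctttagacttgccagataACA
SNORA51: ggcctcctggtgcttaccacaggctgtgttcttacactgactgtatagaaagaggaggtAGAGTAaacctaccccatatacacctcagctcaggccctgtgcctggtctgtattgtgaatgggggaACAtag
SNORD110: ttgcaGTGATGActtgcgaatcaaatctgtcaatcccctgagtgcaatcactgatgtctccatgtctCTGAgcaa
SNORD57: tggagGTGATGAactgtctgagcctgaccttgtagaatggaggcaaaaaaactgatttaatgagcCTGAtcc
SNORD70: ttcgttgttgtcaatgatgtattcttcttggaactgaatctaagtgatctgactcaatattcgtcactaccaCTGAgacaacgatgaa
SNORD70B: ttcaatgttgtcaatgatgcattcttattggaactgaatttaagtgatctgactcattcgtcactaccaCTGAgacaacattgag
SNORD11: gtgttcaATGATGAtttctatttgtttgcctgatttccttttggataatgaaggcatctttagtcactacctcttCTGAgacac
SNORD11B: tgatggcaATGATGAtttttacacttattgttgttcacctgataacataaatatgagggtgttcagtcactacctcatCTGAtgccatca

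These letters were found in most annotated snoRNAs and mark no site by themselves. Of 313 C/D RNAs with a sequence, 64.5% held the box C letters and 91.4% the box D letters in those windows, and of 213 H/ACA RNAs 60.6% held a single H box and 82.6% an ACA. SNORD70 and SNORD70B are near copies within NOP58, identical at 77 of 88 aligned positions (87.5%), while SNORD11 and SNORD11B share 64 of 97 (66.0%).

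The assigned fragments ranged from 5771795 to 12287451 per library. Records left out as multi-mapping numbered 22599823 and 7158307 in the unlabelled libraries against 6059635 and 15992331 in the labelled libraries. Their part in the differences between libraries was not tested. Mitochondrial transcripts took 9.04% and 10.4% of assigned fragments in the unlabelled libraries against 27.0% and 30.9% in the labelled libraries. Levels are given in CPM, a gene's count relative to its library's total after scaling by the trimmed mean method (TMM), and they describe the RNA recovered in each library, where more RNA in the cells and better recovery of that RNA cannot be told apart. Likewise, in bulk RNA fewer expressing cells and less RNA per cell cannot be told apart. All 6 HEK293 markers (LHX1, PAX2, NEFL, NEFM, CDH2 and VIM) had counts in all 4 libraries. Their sums were 244 and 201 CPM in the unlabelled and 214 and 210.4 CPM in the labelled group. Most of each sum came from VIM at 179 to 216 CPM, and the others ran from 0.445 CPM (NEFM) to 13.6 CPM (PAX2). Markers of blood, endothelium, fibroblasts and liver summed to 21.0 and 12.98 CPM in the unlabelled group and to 21.1 and 21.4 CPM in the labelled group, most of it from COL1A1 at 11.8 to 20.5 CPM, and 3 of the 8 (HBB, CD3E and DCN) were at 0 in all libraries.

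All 8 genes passed the low-count filter, and together they held 9002, 5673, 8669 and 11673 fragments in unlabelled replicates 1 and 2 and labelled replicates 1 and 2, or 0.110%, 0.0983%, 0.0924% and 0.0950% of assigned fragments. On the TMM scale the same sums were 1002 and 856 CPM in the unlabelled libraries against 1011 and 1123 CPM in the labelled libraries. The share of all fragments was thus lower and the scaled sum higher in the labelled group, which held the larger mitochondrial share. With mitochondrial genes left out of the fit, the log2 fold changes of the 8 moved little (GAR1 0.77 to 0.78, FBL 0.48 to 0.49), and GAR1 kept an adjusted p under 0.05 with edgeR. Between labelled and unlabelled libraries, 1 of the 8 (GAR1, higher) had an adjusted p under 0.05 in the edgeR quasi-likelihood fit of 18973 genes, where 0.285% of all genes did, 0.269% higher and 0.0158% lower. An unadjusted p under 0.05 was found for 2 of the 8 (GAR1 and FBL, both higher) and for 11.5% of all genes, 5.67% in the higher direction. For 5 of the 8 the labelled and unlabelled values stood apart, with 4 higher (22.2% of all genes) and 1 lower in labelled libraries (22.4% of all genes). A positive log2 fold change was found in 6 of the 8 and in 48% of all genes, and the median was 0.15 for the 8 against -0.01 for all genes.

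**Figure D1:**
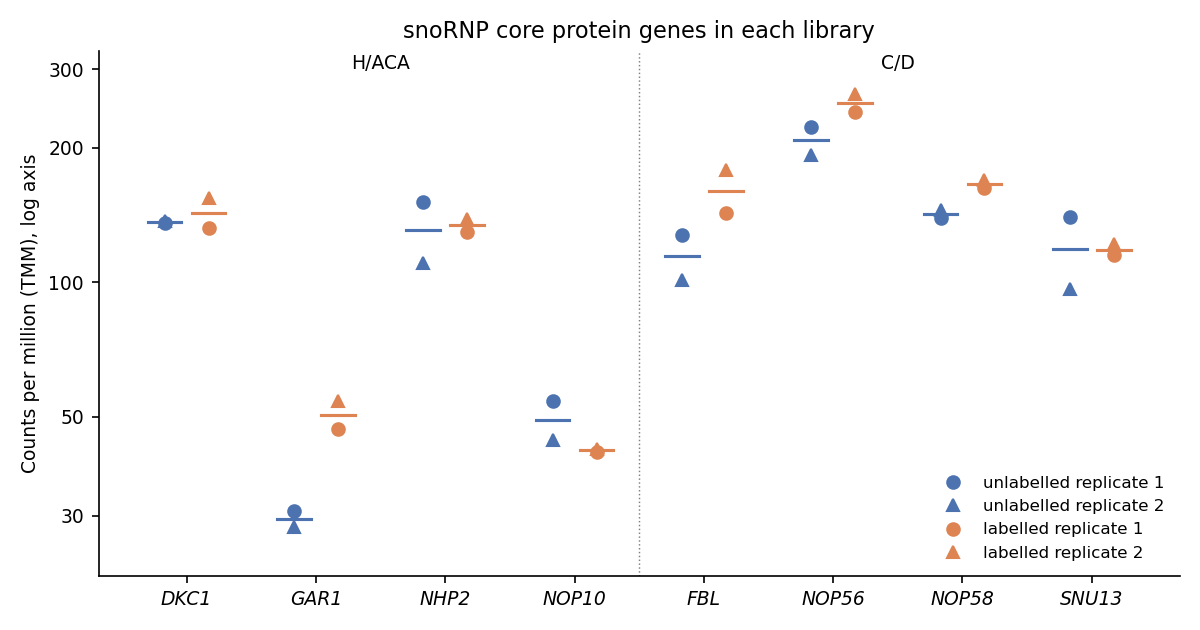
TMM-scaled CPM (log axis) of the 8 genes in each library, with circles for replicate 1, triangles for replicate 2 and bars for group means. GAR1 stood lowest in the unlabelled group at 28.2 and 30.7 and at 46.9 and 54.1 in the labelled group, and NHP2 and SNU13 were widest apart between the unlabelled libraries.

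Among the H/ACA genes, DKC1 encodes the catalytic subunit (ENSG00000130826, chromosome X, 154762742 to 154777689, plus strand). It stood at 136 and 137 CPM in the unlabelled libraries against 132 and 154 CPM in the labelled libraries. The labelled values lay on both sides of the unlabelled ones. Its log2 fold change was 0.07 ± 0.13 (SE).

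GAR1 encodes the small subunit that touches the catalytic domain of dyskerin and joins the particle late, in place of the assembly factor NAF1 (ENSG00000109534, chromosome 4, 109815510 to 109824740, plus strand, no exon base shared with another gene). It held 276 and 187 fragments in the unlabelled libraries against 402 and 562 in the labelled libraries, which are 30.7 and 28.2 against 46.9 and 54.1 CPM. Both labelled libraries were above both unlabelled ones, and the gap between the nearest of them exceeded the spread within either group. The means were 29.5 ± 1.78 and 50.5 ± 5.08 CPM (SD, n = 2), a 1.71-fold difference. Its log2 fold change of 0.77 ± 0.13 (SE; edgeR adjusted p 0.0328 over all genes) was the 306th highest of 18973. The adjusted p was 0.622 without labelled replicate 2, where the remaining labelled library has no partner and is assumed to vary like the unlabelled ones, and 0.0561 with scaling by library size alone.

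NHP2 binds the guide RNA next to dyskerin and NOP10 (ENSG00000145912, chromosome 5, 178149463 to 178153894, minus strand). It stood at 151 and 110.4 CPM in the unlabelled libraries against 129.6 and 139 CPM in the labelled libraries. Both labelled values lay inside the unlabelled range. The log2 fold change was 0.03 ± 0.16, with 0.31 without unlabelled replicate 1 and -0.17 without unlabelled replicate 2. Of its exon bases 28.0% are shared with RMND5B on the opposite strand, and fragments that overlap both genes alike stay unassigned.

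NOP10, the smallest protein of the core, bridges dyskerin and NHP2 (ENSG00000182117, chromosome 15, 34339159 to 34343180, minus strand, no shared exon base). It stood at 54.1 and 44.2 CPM in the unlabelled libraries against 41.6 and 42.3 CPM in the labelled libraries. Both labelled values were below both unlabelled ones, by less than the unlabelled libraries differed from each other. The log2 fold change was -0.23 ± 0.14, and it was -0.04 without unlabelled replicate 1 and -0.36 without unlabelled replicate 2.

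Among the C/D genes, FBL encodes the methyltransferase (ENSG00000105202, chromosome 19, 39834458 to 39846379, minus strand, no shared exon base). It stood at 128 and 101 CPM in the unlabelled libraries against 143 and 178 CPM in the labelled libraries. The groups did not overlap, and the gap between them was smaller than the spread within either. The means were 114 ± 18.9 and 160.3 ± 24.9 CPM (SD, n = 2), and the log2 fold change was 0.48 ± 0.16, with an adjusted p of 0.306 in edgeR. The log2 fold change was 0.70 without unlabelled replicate 1 and 0.33 without unlabelled replicate 2. In these fits the lone unlabelled library is assumed to vary like the labelled ones. With scaling by library size alone the log2 fold change was 0.13.

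NOP56 and NOP58 are paralogues that hold the guide RNA and place fibrillarin on it. NOP56 (ENSG00000101361, chromosome 20, 2652593 to 2658393, plus strand) had the highest CPM of the 8, at 223 and 193 in the unlabelled libraries against 240.0 and 264 in the labelled libraries. NOP58 (ENSG00000055044, chromosome 2, 202265736 to 202303661, plus strand) stood at 139 and 145 CPM against 163 and 169.8 CPM. In both genes the labelled libraries were above the unlabelled ones, with log2 fold changes of 0.28 ± 0.14 and 0.23 ± 0.13. For NOP56 the value was 0.42 without unlabelled replicate 1 and 0.18 without unlabelled replicate 2. For NOP58 the gap between the groups exceeded the spread within them, and its fold change was 0.21 to 0.28 with each library left out, the narrowest such range of the 8.

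SNU13, also called 15.5K, starts C/D assembly by binding the kink-turn that boxes C and D form, and it also binds U4 small nuclear RNA (ENSG00000100138, chromosome 22, 41673933 to 41690504, minus strand). It stood at 140.3 and 96.7 CPM in the unlabelled libraries against 115 and 122 CPM in the labelled libraries. The labelled values lay inside the unlabelled range. Its log2 fold change of -0.01 ± 0.16 was 0.32 without unlabelled replicate 1 and -0.24 without unlabelled replicate 2.

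**Figure D2:**
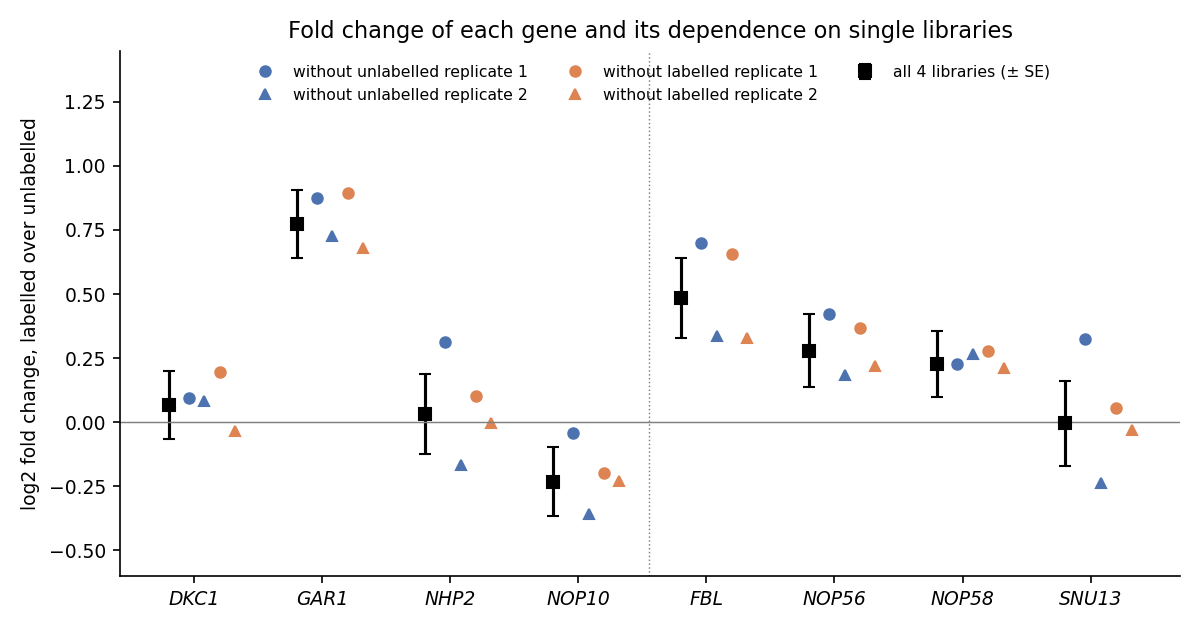
Log2 fold change of labelled over unlabelled libraries for each gene, with the fit of all 4 libraries as black squares (± SE) and the fits without 1 library in colour. GAR1 stayed between 0.68 and 0.89 and NOP58 between 0.21 and 0.28, whereas NHP2 ran from -0.17 to 0.31 and SNU13 from -0.24 to 0.32.

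The 2 unlabelled libraries differed from each other by unequal amounts among the 8 genes. On the log2 CPM scale, unlabelled replicate 2 minus replicate 1 was -0.54 for SNU13, -0.45 for NHP2, -0.34 for FBL, -0.29 for NOP10, -0.21 for NOP56 and -0.12 for GAR1, but 0.02 for DKC1 and 0.06 for NOP58. The longest coding transcripts in GENCODE 29 measure 554 bases for NOP10, 865 for NHP2, 1160 for FBL, 1224 for GAR1, 1503 for SNU13, 2046 for NOP58, 2400 for NOP56 and 3079 for DKC1, against a median of 3417 over 13510 tested coding genes. Over all those genes, the same difference had a median of -0.14 for transcripts of up to 1969 bases and of 0.05 for those of 5818 bases or more. Among the 8 the difference ran from -0.54 to -0.12 for genes of 554 to 1503 bases and from -0.21 to 0.06 for those of 2046 to 3079 bases. Gene by gene the order was not that of length. GAR1, with 1224 bases, differed less than NOP56, with 2400, and NOP10, the shortest, less than SNU13, NHP2 and FBL. The part of transcript length in these values was not tested. Uridine, the base that s4U replaces, made up 18.7% of the NOP56 transcript, 20.3% of FBL, 20.5% of NHP2, 24.8% of NOP58, 24.9% of DKC1, 26.2% of NOP10, 26.5% of GAR1 and 27.1% of SNU13, around a median of 24.8%. GAR1 and SNU13, with the most uridine, had the highest and the second lowest fold change of the 8.

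Ratios of counts within a library do not depend on scaling. Only that of GAR1 to DKC1, of the 6 ratios within a particle given here, parted the groups by more than the spread within them, and GAR1 is the gene already called. GAR1 fragments per DKC1 fragment were 0.226 and 0.205 in the unlabelled libraries against 0.354 and 0.351 in the labelled libraries, 1.63-fold higher on average, and the groups did not overlap. NOP10 per DKC1 was 0.398 and 0.322 against 0.315 and 0.275, lower in both labelled libraries by a margin smaller than the spread within either group. NHP2 per DKC1 overlapped, at 1.11 and 0.804 against 0.980 and 0.900. Within the C/D core, FBL per NOP56 was 0.573 and 0.525 against 0.595 and 0.673, and SNU13 per NOP56 was 0.629 and 0.502 against 0.480 and 0.460. Neither ratio overlapped between groups, and for each the gap was smaller than the spread of the unlabelled libraries. The paralogue ratio NOP58 to NOP56 overlapped, at 0.623 and 0.755 against 0.678 and 0.642.

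H/ACA and C/D genes did not separate as classes by their fold change. The median log2 fold change was 0.05 for the 4 H/ACA genes and 0.25 for the 4 C/D genes, and the highest and the lowest of the 8, GAR1 and NOP10, both belong to H/ACA. Mean log2 CPM of the H/ACA genes minus that of the C/D genes was -1.003 and -0.96 in the unlabelled libraries against -1.06 and -1.08 in the labelled libraries. The difference between the group means was -0.09, beside SDs of 0.03 and 0.01 within the unlabelled and labelled groups (n = 2 each). It was -0.29 without GAR1 and 0.04 without NOP10, so single genes set its size and sign.

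Levels between genes were compared as CPM per kilobase of merged exon length, over all 4 libraries. The order from the highest was NHP2 at 89.8 ± 11.7 (SD, n = 4), FBL at 64.3 ± 14.99, NOP58 at 47.1 ± 4.42, NOP56 at 46.5 ± 6.10, SNU13 at 40.5 ± 6.15, NOP10 at 28.9 ± 3.68, GAR1 at 20.4 ± 6.37 and DKC1 at 15.2 ± 1.06. The range over the libraries overlapped that of the next gene at each step of this order. Within single libraries, NHP2 was above FBL, FBL above NOP58 and SNU13 above NOP10 in all 4. NOP56 was above SNU13, NOP10 above GAR1 and GAR1 above DKC1 in 3 of the 4, and NOP58 above NOP56 in 2, so these neighbours were not separated. The order pools both groups, and GAR1 and DKC1 were alike in the unlabelled libraries, at 15.6 and 14.4 against 14.8 and 14.9 CPM per kilobase, and apart in the labelled ones, at 23.9 and 27.5 against 14.4 and 16.8. Merged exons include retained introns, and they measure 9198 bases for DKC1 and 4950 for NOP56. Besides NHP2, exon bases are shared with other genes in NOP58 (10.3%), NOP56 (9.54%), SNU13 (3.04%) and DKC1 (2.84%), where fragments can stay unassigned. Per kilobase of the longest coding transcript, DKC1 stood at 45.4 ± 3.15, above GAR1 at 32.7 ± 10.2, and NOP10 at 82.3 ± 10.5 moved to the fourth place, while NHP2 at 153 ± 19.9 and FBL at 118 ± 27.6 stayed the highest on both scales.

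Of the 11 snoRNAs within these genes, 8 had no fragment in any library, which allows up to 0.367, 0.520, 0.320 and 0.244 CPM of assigned fragments in the 4 libraries, as far as the counting can assign them (3 counts, counting error only). They were both H/ACA RNAs of DKC1 (SNORA36A at 154768528 to 154768659 and SNORA56 at 154774998 to 154775126), all 5 of NOP56 (SNORD110 at 2654212 to 2654286, SNORA51 at 2655067 to 2655198, SNORD86 at 2656097 to 2656182, SNORD56 at 2656624 to 2656694 and SNORD57 at 2656939 to 2657010) and SNORD70B of NOP58. All 8 overlapped a merged exon of the host (SNORA51 and SNORD70B with part of their length), in sequence that other transcripts of the gene splice out, and a fragment whose reads overlap both genes alike is assigned to neither. The remaining 3, all in NOP58, lay outside its merged exons and were counted. A fragment of unspliced NOP58 RNA that reaches such a snoRNA would be counted for it too, and the part of such fragments was not tested. SNORD70 (202276431 to 202276518) held 30 and 41 fragments in the unlabelled libraries against 25 and 33 in the labelled libraries, while its near copy SNORD70B (202278108 to 202278192), shown above, held 0. SNORD11 (202293051 to 202293134) held 14, 24, 28 and 34 and SNORD11B (202291332 to 202291421) 15, 12, 7 and 14. Their log2 fold changes of -0.61 ± 0.36, 0.39 ± 0.42 and -0.65 ± 0.46 (SNORD70, SNORD11 and SNORD11B, with edgeR adjusted p of 0.543 to 0.747) stood beside 0.23 for their host. Of 448 snoRNAs in introns of a GENCODE 29 transcript, 65 passed the low-count filter and were tested. Their median log2 fold change was -0.32 against -0.01 over all genes, and 35.4% were above 0 against 48% of all genes.

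**Figure D3:**
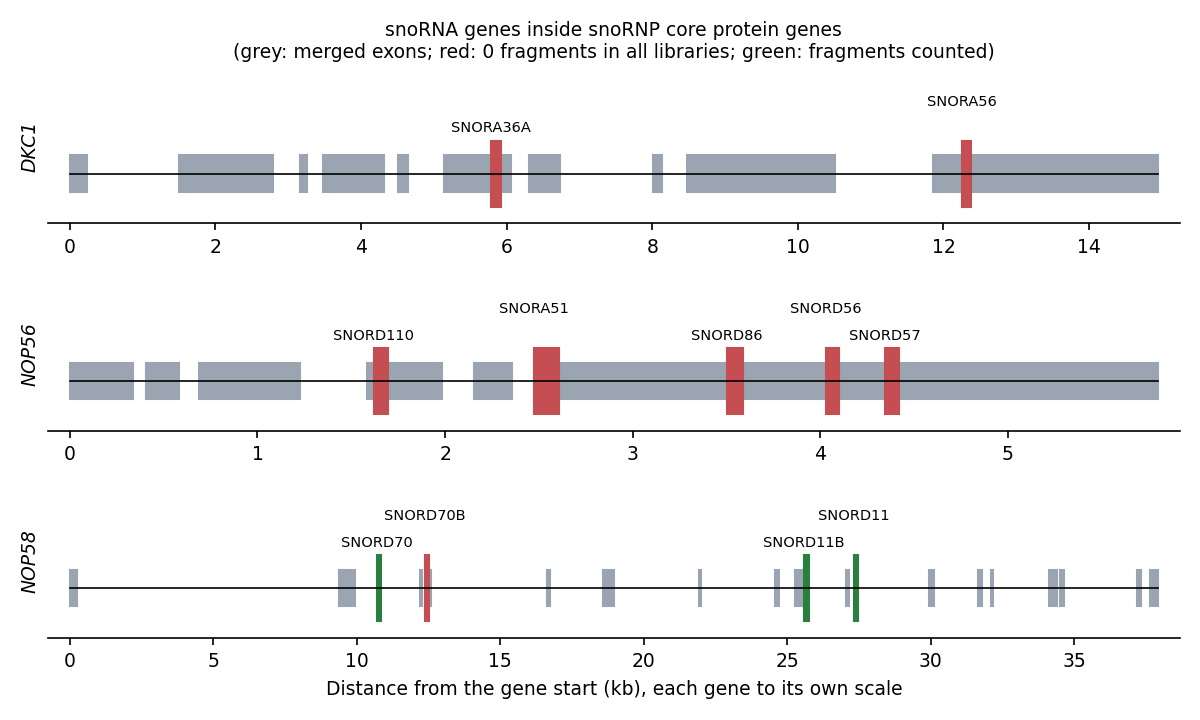
Merged exons (grey) and snoRNA genes of DKC1, NOP56 and NOP58 by distance from the gene start in kilobases, with snoRNAs red where all libraries held 0 fragments and green where fragments were counted. All 8 red snoRNAs overlap grey, and the 3 green ones, SNORD70, SNORD11B and SNORD11, lie between exons of NOP58.

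The table as a whole showed the same split. Of 448 snoRNA genes in an intron of at least 1 GENCODE 29 transcript, 202 overlapped a merged exon of the host, and 93.6% of these had 0 fragments in all libraries. Of the 246 that overlapped none, 39.0% had 0. A count of 0 for an overlapping snoRNA is therefore no measure of its level.

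Genes that hold snoRNAs in introns were then compared with the rest. Of the 8 core genes, the 3 hosts had log2 fold changes of 0.07 (DKC1), 0.28 (NOP56) and 0.23 (NOP58), and the 5 others ran from -0.23 to 0.77, so the hosts lay inside the range of the others. Among hosts outside the 8, taken as genes whose introns hold a snoRNA that overlaps none of their merged exons, 137 of 165 were tested. Their median log2 fold change was -0.002 against -0.01 over all genes, and 68 of the 137 were above 0. With edgeR 0 had an adjusted p under 0.05 and 14 an unadjusted p under 0.05, with 7 of them higher, and DESeq2 called 1, NCL. Those 14 are 10.2% of the hosts, close to the 11.5% of all genes, so the genes named next are examples and not a result about hosts. The 5 with the smallest p were AMMECR1, the ribosome biogenesis protein nucleolin (NCL), the non-coding host SNHG3, the ribosomal protein gene RPL37 and FOCAD. NCL, which holds SNORD82, stood at 874 and 784 CPM against 1199 and 1338 CPM, so that the log2 fold change was 0.61 ± 0.19, with an edgeR adjusted p of 0.290. SNHG3 had 0.43 ± 0.14, and AMMECR1, RPL37 and FOCAD had -0.54 ± 0.12, -0.47 ± 0.16 and -0.36 ± 0.13. With hosts taken from single GENCODE 29 transcripts, a rule chosen after seeing the data, 189 of 211 were tested. They had the same median of -0.002 and 0 calls by edgeR. An unadjusted edgeR p under 0.05 was found for 22, which is 11.6% against 11.5% of all genes. DESeq2 called 2 (NCL and RPL39), beside 76 calls over all 39689 genes in that fit. By that rule the 160 protein-coding hosts had a median of -0.02 and the 29 others 0.09.

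Of 20 factors that assemble and mature snoRNPs, all were tested, 17 were above 0 (85.0%, against 48% of all genes) and the median was 0.11. None had an adjusted p under 0.05 with edgeR (0) or DESeq2 (0), and 2 had an unadjusted p under 0.05, which is 10.0% against 11.5% of all genes and no result about the list. These were PHAX, which carries guide RNAs of their own promoters from the site of transcription, at 63.4 and 64.6 against 80.9 and 89.1 CPM, and ZNHIT6, a C/D assembly factor, at 78.6 and 80.6 against 98.5 and 104 CPM. In both the labelled libraries were above the unlabelled ones, with log2 fold changes of 0.41 ± 0.12 and 0.35 ± 0.12 (edgeR adjusted p 0.290 and 0.332). COIL, the scaffold of Cajal bodies, had 0.21 ± 0.13.

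The small subunit processome, in which U3 snoRNA acts on the ribosomal RNA precursor with all 4 C/D proteins, had a median of 0.12 over 38 genes, with 26 above 0 (68.4%, against 48% of all genes). With edgeR and DESeq2 0 were called, and 3 had an unadjusted edgeR p under 0.05, 7.9% against 11.5% of all genes. By the rule of lowest p, UTP3 stood at 0.47 ± 0.13, UTP14A at 0.42 ± 0.13 and IMP3, which pairs U3 with its target, at 0.39 ± 0.16. The 14 proteins of the spliceosomal U4/U6.U5 particle, which shares SNU13, had a median of 0.13 with 10 above 0 (71.4%), 0 called by edgeR or DESeq2 and 2 at an unadjusted p under 0.05 (14.3%, against 11.5% of all genes). PRPF6 had 0.46 ± 0.13, the helicase DDX23 0.44 ± 0.16 and USP39 0.27 ± 0.13, beside -0.01 for SNU13.

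The list of enzymes that make the same modifications without a guide RNA also held the fibrillarin-like FBLL1. Over its 20 genes the median was 0.07, with 14 above 0 (70.0%, against 48% of all genes). With edgeR and DESeq2 0 were called, and 1 had an unadjusted edgeR p under 0.05 (5.0%, against 11.5%). That gene was PUSL1, a pseudouridine synthase, at 35.7 and 37.9 CPM in the unlabelled libraries against 27.9 and 27.7 CPM in the labelled libraries, with -0.40 ± 0.13 as the log2 fold change and 0.303 as the adjusted p in edgeR. The labelled values were below the unlabelled ones by more than the spread within either group. The methyltransferase MRM3 had 0.25 ± 0.13 and the pseudouridine synthase PUS3 0.40 ± 0.21. The 4 list medians above 0 turned negative with scaling by library size alone, at -0.28 to -0.23. The median of all genes was then -0.37, below each of them. Relative to that median of all genes, GAR1 stood at 0.79, FBL at 0.50 and NOP10 at -0.22.

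**Figure D4:**
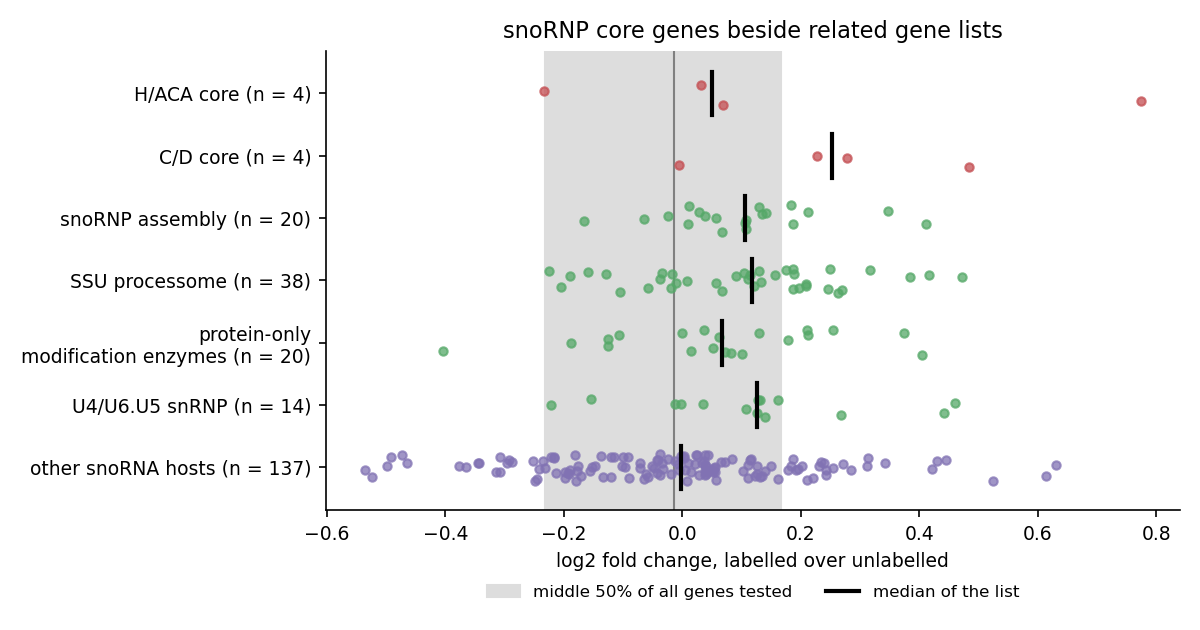
Log2 fold change of the core genes (red), related lists (green) and other snoRNA hosts (purple), with list medians as black bars and the middle 50% of all tested genes, -0.23 to 0.17, in grey. GAR1 at 0.77 and FBL at 0.48 lie farthest right among the core genes, and the medians of the related lists, 0.07 to 0.13, lie inside the grey band.

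The genes whose pattern over the 4 libraries was most like that of GAR1 were sought among 8535 genes with a mean of at least 20 CPM, by the Euclidean distance of centred log2 CPM. HNRNPH3 (0.11), HNRNPA1 (0.13) and TAF15 (0.14), all genes of nuclear RNA-binding proteins, were the nearest, against a median distance of 0.77. HNRNPH3 stood at 155 and 141 against 253 and 291 CPM, TAF15 at 163 and 171 against 273 and 308, and HNRNPA1 at 1292 and 1127 against 1783 and 2007. With 4 libraries in 2 groups, a like difference between groups gives a like pattern, so this measure describes these libraries.

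For 6 of the 8 genes (not NOP58 and SNU13) RefSeq start windows on GRCh38.p14 were at hand, from 250 bases before to 50 after the start, with more than 1 start for GAR1. Members were counted by gene and the background by window, so the shares below are not like measures. The E-box letters CACGTG were in the windows of FBL, GAR1 and NOP10 and in 7.26% of all 35116 windows, and the ETS letters CCGGAAG were in the same 3 genes and in 10.3% of windows. CCAAT was found in 5 of the 6 (34.6% of windows), GGGCGG in all 6 (45% of windows) and TATAAA in 0 (11.5% of windows), on either strand, with no overlap between these words required or removed. FBL, GAR1 and NOP10, which share both words, had log2 fold changes of 0.48, 0.77 and -0.23.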

How the data were processed

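The submitters' processing notes name STAR 2.7.9a, GRCh38 and DESeq2 1.42.0. The deposited counts are whole fragment counts per gene, not normalized, made by featureCounts 1.6.4 on GENCODE 44 exons from read pairs with both ends mapped, with no strand, multi-mapping or multi-overlap option, per the file headers. Whether duplicates were removed is not stated there. A deposited summary table holds counts of alignment records by status, and its assigned totals equal the sums of the gene counts. All 62700 identifiers were paired with symbols, and 58207 had a GENCODE 29 biotype. The exon length of each gene, another deposited column, is that of its merged exons.

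Counts were fitted with edgeR 4.0.16 (glmQLFit, glmQLFTest) in R 4.3.3 after filterByExpr and TMM, with all 4 libraries, no block and Benjamini-Hochberg adjustment over 18973 genes. SE is the fold change (log2) over the root of the F statistic. Log2 CPM used a prior count of 2. The fit was tested on simulated counts with planted log2 fold changes of 1 and 2 in either direction. All 8 members lay below that size, so the simulation does not cover them. The members and lists were chosen with earlier results of these data known. Named genes were all 8 members and their intronic snoRNAs, the 3 genes of lowest p per list, the 5 hosts of lowest p and the 3 genes nearest to the member with the largest fold change. RPL39 was named after its value was seen. Alternatives covered tool (DESeq2), scaling, filters, a replicate block, each library left out, and host and length rules. Plots used Python 3.11.15 and matplotlib 3.10.9.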

Additional observations from a re-analysis of the deposited data

How the results depend on the processing

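With scaling by library size alone, all genes had a median of -0.37, 2744 genes were called in place of 54, and DKC1 stood at -0.29, NHP2 at -0.32, NOP56 at -0.077, NOP58 at -0.13, SNU13 at -0.36, FBL at 0.13, GAR1 at 0.42 (adjusted p 0.0561) and NOP10 at -0.59 (adjusted p 0.0237). Under it the list medians were -0.25 for snoRNP assembly, -0.24 for the processome, -0.28 for protein-only enzymes, -0.23 for U4/U6.U5 proteins and -0.36 for hosts. In that order, calls were 1 of 20, 7 of 38, 3 of 20, 2 of 14 and 39 of 137, beside 2744 of all 18973 genes. Of the calls over all genes, 2675 were lower and 69 higher in labelled libraries. The calls over all genes were 30 without mitochondrial genes and 302 with no filter. SNU13 stood at 0.021 with no filter, 0.020 with DESeq2 and 0.019 with the replicate block. Hosts had 1 call with no filter, with DESeq2 and with the replicate block, and a median of 0.017 with no filter and 0.016 with DESeq2. The replicate block gave 236 calls. Same-numbered libraries did not deviate together (r = -0.07 across genes), the labels give only a shared number, and the block changed no call among the 8. The cause was not tested for these changes.

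With 1 library left out, the calls over all genes ran from 58 (labelled replicate 2 left out) to 3985 (unlabelled replicate 1 left out), with 937 when unlabelled replicate 2 was left out and 93 when labelled replicate 1 was. The fold changes ran from -0.034 to 0.19 for DKC1, 0.68 to 0.89 for GAR1, -0.17 to 0.31 for NHP2, -0.36 to -0.043 for NOP10, 0.33 to 0.70 for FBL, 0.18 to 0.42 for NOP56 and -0.24 to 0.32 for SNU13. Without unlabelled replicate 1 the values were 0.70 for FBL, 0.31 for NHP2, 0.42 for NOP56 and 0.32 for SNU13. Without unlabelled replicate 2, NOP10 stood at -0.36 and FBL at 0.33. Each fit left a single library in 1 group, so members passing an adjusted p there are not counted. The list calls given next come from the same fits and are no result about any list. Without unlabelled replicate 1, the 3985 calls were among 20969 tested genes. In the order given next, the lists hold 20, 38, 20, 14 and 165 genes, not all of which need be tested in each fit. List calls and medians ran from 0 to 6 and 0.086 to 0.22 for assembly, 0 to 11 and 0.092 to 0.18 for the processome, 0 to 7 and 0.036 to 0.14 for protein-only enzymes, 0 to 5 and 0.069 to 0.20 for U4/U6.U5 proteins and 0 to 35 and -0.014 to 0.020 for hosts, the most calls in each list coming without unlabelled replicate 1.

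H/ACA minus C/D was -0.24 by medians over the 4 genes and -0.054 without DKC1, -0.29 without GAR1, -0.050 without NHP2, 0.040 without NOP10, -0.011 without FBL and -0.17 without SNU13. In the order of levels, 0 genes kept their place with no division by length, 3 with transcript length (chosen after seeing the data) and 6 to 8 with 1 library left out. Depth limits single snoRNAs, with 7 to 41 fragments each where counted.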
